A study of Mus musculus with 18 samples.

Results

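The genes described here are the nuclear-encoded subunits of the 5 oxidative phosphorylation complexes, read in mouse kidney RNA. They were chosen by symbol (the Ndufa, Ndufb, Ndufc, Ndufs and Ndufv series, Sdha to Sdhd, and names starting with Uqcr, Cox4i, Cox5, Cox6, Cox7, Cox8 or Atp5), without assembly factors and pseudogenes. Of 19545 genes in the table, 88 carried such a name, and 85 of them had at least 1 FPKM in at least 3 libraries. The values are FPKM, a unit inferred from the table itself, in which reads are divided by the length of the gene and by the total of the library, so levels can be compared between genes. The 85 comprised 38 of the 39 complex I genes, all 4 of complex II, all 8 of complex III, 18 of 20 of complex IV and all 17 of complex V. Ndufa4 and Ndufa4l2 were placed in complex IV, where the Ndufa4 protein is now known to sit.

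RNA from whole kidney of ICR mice aged 10 weeks was sequenced in 6 groups of 3 samples. STZ+AOS-FMT and STZ+control-FMT were given STZ and a transfer labelled with AOS at 10 mg/kg or with control, taken to be what the donor mice had received. STZ+AOS had STZ and AOS at 10 mg/kg, STZ had STZ, AOS had AOS at 10 mg/kg, and control had neither. STZ usually stands for streptozotocin, which kills pancreatic beta cells and leaves rodents diabetic, and FMT for transplantation of faecal microbiota. The meaning of AOS is not given in the labels, nor are the dose of STZ, the sex and the time from treatment to sampling. Whether the 3 samples of a group came from separate mice is not stated, so the p-values rest on a spread between samples that may be technical. The comparisons ask what STZ and AOS did to kidney RNA, alone, together and through a transfer.

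Oxidative phosphorylation makes most of the ATP of the kidney tubule. Complexes I and II pass electrons from NADH and succinate to ubiquinone, complex III passes them on to cytochrome c, complex IV passes them to oxygen, and complex V uses the proton gradient built on the way to make ATP. All but complex II also hold subunits made inside the mitochondrion, while the subunits described here are transcribed in the nucleus and imported. Proximal tubule cells, which reabsorb most of the filtered salt and solutes, are among the cells richest in mitochondria. Nuclear respiratory factor 1 (NRF1), the ETS-family factor GABP, YY1 and the estrogen-related receptors are the regulators best known to bind the promoters of these genes. The 13 mitochondrially encoded subunits were looked for in the table, and 0 of 13 were listed, so those subunits were not analysed here.

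The promoter windows show what these genes carry in common before any level is read. RefSeq promoters (250 bases before to 50 after the start of the gene, build GRCm38.p6) matched 69 of the 85 genes. The NRF1 motif, spelled GCGCA, any base, GCGC and read on both strands like the others, lay in the promoter of 17 of those 69 genes (24.6%), against 11.1% of 10114 tested genes and 5.19% of all 27025 genes with a window of that length. The YY1 motif AAGATGGCG lay in 7 of 69 (10.1%), against 3.46% of tested genes and 1.64% of all genes. The ERR motif AAGGTCA lay in 8 of 69 (11.6%), against 4.18% of tested genes and 5.38% of all genes. For the ETS motif CCGGAAG the shares were closer together, 16 of 69 (23.2%) against 19.6% of tested genes and 9.93% of all genes. Matches of different motifs overlapped in 0 of the 74 windows of these genes. A motif match is a description of the letters in the window and not a measured binding site. The 4 windows below with more than 1 NRF1 motif are shown to let the repeats be seen, 1 each from complexes I to IV, and the fifth belongs to Atp5l, which recurs below. Capitals mark NRF1, ETS and YY1 motifs on either strand. ERR motifs are left unmarked, and the windows of Ndufb4 (aaggtca) and Atp5l (tgacctt) hold it.
Ndufb4, chr16:37654319-37654618, minus strand: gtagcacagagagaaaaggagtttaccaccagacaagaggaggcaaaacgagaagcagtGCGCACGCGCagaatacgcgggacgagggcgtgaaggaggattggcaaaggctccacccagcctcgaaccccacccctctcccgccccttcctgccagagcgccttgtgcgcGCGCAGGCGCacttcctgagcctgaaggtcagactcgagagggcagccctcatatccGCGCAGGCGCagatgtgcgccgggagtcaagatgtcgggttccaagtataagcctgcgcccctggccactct
Sdha, chr13:74350191-74350490, minus strand: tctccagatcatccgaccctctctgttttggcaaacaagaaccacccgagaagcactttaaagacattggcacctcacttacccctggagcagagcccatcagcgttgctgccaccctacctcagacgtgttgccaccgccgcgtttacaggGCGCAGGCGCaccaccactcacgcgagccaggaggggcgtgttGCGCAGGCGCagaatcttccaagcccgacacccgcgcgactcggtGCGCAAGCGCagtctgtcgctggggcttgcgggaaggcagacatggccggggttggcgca
Uqcrc1, chr9:108936398-108936697, plus strand: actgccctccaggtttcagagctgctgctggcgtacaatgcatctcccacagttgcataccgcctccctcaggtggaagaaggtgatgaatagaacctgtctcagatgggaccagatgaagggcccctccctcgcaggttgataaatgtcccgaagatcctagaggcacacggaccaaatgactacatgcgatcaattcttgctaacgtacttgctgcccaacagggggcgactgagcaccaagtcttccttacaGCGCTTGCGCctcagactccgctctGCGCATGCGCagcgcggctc
Cox6a1, chr5:115348909-115349208, minus strand: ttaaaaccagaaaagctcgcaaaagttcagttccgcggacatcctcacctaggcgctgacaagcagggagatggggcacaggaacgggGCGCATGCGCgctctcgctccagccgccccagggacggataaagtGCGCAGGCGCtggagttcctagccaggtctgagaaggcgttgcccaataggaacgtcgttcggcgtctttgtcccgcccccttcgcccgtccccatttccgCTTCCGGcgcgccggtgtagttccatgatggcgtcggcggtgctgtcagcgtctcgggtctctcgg
Atp5l, chr9:44920693-44920992, minus strand: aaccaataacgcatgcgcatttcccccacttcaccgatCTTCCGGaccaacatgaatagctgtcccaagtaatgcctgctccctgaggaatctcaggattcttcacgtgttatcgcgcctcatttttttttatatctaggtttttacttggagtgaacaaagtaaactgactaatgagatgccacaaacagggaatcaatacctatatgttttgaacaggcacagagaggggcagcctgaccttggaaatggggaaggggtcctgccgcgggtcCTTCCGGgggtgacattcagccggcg
Ndufb4 and Sdha each held 3 NRF1 motifs and Uqcrc1 and Cox6a1 held 2, while Atp5l held 2 ETS motifs and no NRF1 motif. Of the 10 genes that passed the test in a comparison below, 7 had a RefSeq window, and Atp5l was the only one of those 7 with an NRF1, ETS or YY1 motif in it. The share of all matched members with any of these motifs is not given, so this count is not read as particular to the called genes.

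The subunit genes were among the most abundant transcripts of the kidney, and their median spread was below that of all tested genes. Their mean level over the 18 libraries had a median of 330.1 FPKM, against 9.63 FPKM for the 12682 genes that passed the same filter. Of the 85, 74 averaged at least 100 FPKM, a level reached by 956 of the 12682. The median coefficient of variation over the libraries was 10.1% for the subunits and 18.6% for all tested genes. On the log2(FPKM + 1) scale used for every test, the median SD within groups was 0.12 for the subunits and 0.19 for all tested genes. The spread was not compared with that of other genes at a like level.

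Each complex had its own leading transcript. In complex I it was Ndufb4, an accessory subunit of the membrane arm, with a mean of 826 FPKM. In complex II it was Sdhb, the iron-sulfur subunit of succinate dehydrogenase, with 440.2 FPKM. Uqcrb, the ubiquinone-binding protein, led complex III with 997 FPKM. Cox8a, the common isoform of subunit 8, led complex IV with 2163 FPKM, and Atp5b, the catalytic beta subunit, led complex V with 2104 FPKM. The median member stood at 242 FPKM in complex I, 273 in complex II, 487 in complex III, 535 in complex IV and 706 in complex V. These are RNA levels, and no protein was measured.

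At the low end lay tissue isoforms and paralogues. Just inside the filter were Cox6a2, the heart and muscle isoform of subunit 6a, with a mean of 0.912 FPKM, Cox4i2, the hypoxia-responsive isoform of subunit 4, with 1.69 FPKM, and Ndufb4b, a paralogue of Ndufb4, with 2.78 FPKM. Just outside it were Cox8c, the testis isoform of subunit 8, with at most 1.05 FPKM in STZ 1, and Cox7b2, a paralogue of subunit 7b, with at most 0.71 FPKM in control 2. Ndufa11b was listed at 0 in every library. Reads of Ndufb4b and Ndufb4c may be shared with Ndufb4 itself, and how the counting treated them is not given, so the values of all 3 are uncertain.

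The 85 genes together took up between 5.48% and 7.74% of all FPKM in a library. Their summed level averaged 44434 ± 305 FPKM in STZ+AOS-FMT, 44072 ± 1096 in STZ+control-FMT, 39640 ± 2848 in STZ+AOS, 46194 ± 2024 in STZ, 40156 ± 1242 in AOS and 43656 ± 5165 in control (SD, n = 3 each). The lowest library was STZ+AOS 3 with 37974 FPKM and the highest control 3 with 49366 FPKM. The transfer groups were the tightest and the controls the widest, and control 3 lay far above control 1 and control 2, which had 42291 and 39310 FPKM. Within the sum, the shares of complexes I, III, IV and V moved little, and that of complex II moved most for its size. Complex I held 26.1% to 27.0% of the sum over the 18 libraries, complex II 2.45% to 3.04%, complex III 9.85% to 10.7%, complex IV 29.8% to 31.7% and complex V 29.5% to 30.5%. The complex II share averaged 2.56% in STZ+AOS, 2.64% in STZ, 2.67% in control and 2.78% to 2.92% in the other groups, and its lowest library was control 3.

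**Figure D1:**
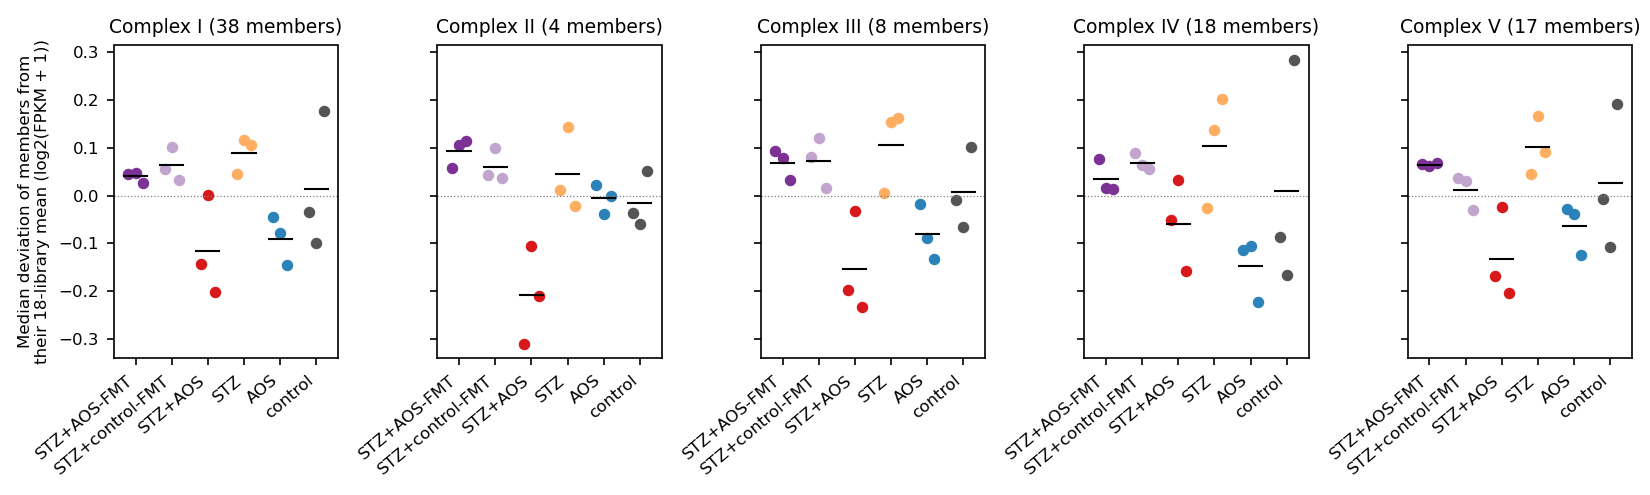
Each point is 1 library and gives the median, over the members of a complex, of the deviation of log2(FPKM + 1) from each member's mean over 18 libraries; bars are group means, and the 6 groups run along the horizontal axis. In all 5 complexes STZ+AOS 1 and STZ+AOS 3 lie below 0, and control 3 is the highest control library.

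The members moved together from library to library. For each member, the mean of the members of the other complexes was taken, and the correlation with it over the 18 libraries had a median of 0.69. It was over 0.8 for 24 members and under 0.5 for 17. These points share libraries, groups and scaling, so the values are descriptions. After group means were removed the median was 0.71. The accessory members of complex III (median 0.82) and the core subunits of complex I (0.82) followed the rest most closely, while the 5 complex IV isoforms had a median of 0.31.

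Several libraries stood apart in ways that touch these genes. Kap, an androgen-regulated transcript of the proximal tubule, took 6174, 35781 and 41198 FPKM in STZ+AOS, 144830, 63552 and 14615 FPKM in STZ, and 144521 to 155154 FPKM in AOS, and control 3 had 15798 FPKM beside 150876 and 145522 FPKM in the other controls. The 5 adrenal cortex markers summed to 1465, 69.9 and 1120 FPKM in STZ+AOS 1, 2 and 3, to 1.01 to 29.1 FPKM in STZ, to 1.05 to 1.65 FPKM in AOS and to 511 FPKM in control 3. All 8 proximal tubule markers passed the filter and summed to 2311 to 3228 FPKM in STZ+AOS, 3416 to 4847 FPKM in STZ and 4399 to 4600 FPKM in AOS. The 4 spermatid markers were at or near 0 in 4 groups and present in each STZ and control library. In bulk tissue, fewer cells of a type and less RNA per cell cannot be told apart.

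The clearest difference in these genes appeared between STZ+AOS and STZ, the comparison that reads the effect of AOS on top of STZ. Of the 85 members, 81 were lower in STZ+AOS (95.3%), against 26.4% of all tested genes. The fall passed the test in 7 members (8.24%), against a background of 1.1% of all genes called lower, and 0 members were called higher, against 3.44% of all genes. The 7 were Ndufab1, Ndufb3, Ndufb4c, Uqcrfs1, Cox5a, Atp5f1 and Atp5l, which span complexes I, III, IV and V. The median log2 difference of the members was -0.21, while that of all tested genes was 0.19. In 38 members (44.7%) all 3 STZ+AOS libraries lay below all 3 STZ libraries, against 4.01% of all genes.

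Atp5f1, subunit b of the stalk that holds the head of complex V to the membrane, had 274, 311 and 289 FPKM in STZ+AOS 1, 2 and 3, against 388, 425 and 342 FPKM in STZ. The 3 STZ+AOS libraries were the lowest of all 18. Atp5f1 averaged 291 ± 18.8 FPKM in STZ+AOS and 385 ± 41.8 FPKM in STZ (SD, n = 3 each) and fell by 0.40 on the log2 scale (SE 0.08, limma adjusted p = 0.0336). Atp5l, subunit g of the membrane part of complex V, had 895, 938 and 855 FPKM in STZ+AOS, against 1135, 1162 and 1135 FPKM in STZ. The groups did not overlap, though AOS 3 with 894 FPKM and control 2 with 924 FPKM were as low as STZ+AOS. Atp5l fell by 0.35 (SE 0.08, limma adjusted p = 0.0421).

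In complex I, Ndufab1, the mitochondrial acyl carrier protein, had 296, 358 and 281 FPKM in STZ+AOS, against 409, 417 and 367 FPKM in STZ. STZ+AOS 2 stood close to the lowest STZ library. Ndufab1 fell by 0.36 (SE 0.09, limma adjusted p = 0.0478). Ndufb3, an accessory subunit of the membrane arm, had 110.4, 125 and 118 FPKM in STZ+AOS, against 149, 145.0 and 138 FPKM in STZ. The 3 STZ+AOS values were below those of all 15 other libraries, and Ndufb3 fell by 0.29 (SE 0.07, limma adjusted p = 0.0478). Ndufb4c, the paralogue with uncertain counting, averaged 126 ± 14.6 FPKM in STZ+AOS and 177 ± 29.6 FPKM in STZ, a fall of 0.49 (SE 0.13, limma adjusted p = 0.0486).

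Uqcrfs1, the Rieske iron-sulfur protein that takes electrons from ubiquinol in complex III, had 236, 275 and 247 FPKM in STZ+AOS, against 324, 339 and 285 FPKM in STZ. It fell by 0.32 (SE 0.08, limma adjusted p = 0.0478). Cox5a, a subunit on the matrix side of complex IV, had 539.8, 557 and 550.2 FPKM in STZ+AOS, against 693, 687 and 654 FPKM in STZ. Both genes were lower in the 3 STZ+AOS libraries than in any of the other 15, and the 3 STZ+AOS values of Cox5a lay close together. Cox5a fell by 0.30 (SE 0.07, limma adjusted p = 0.0448).

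**Figure D2:**
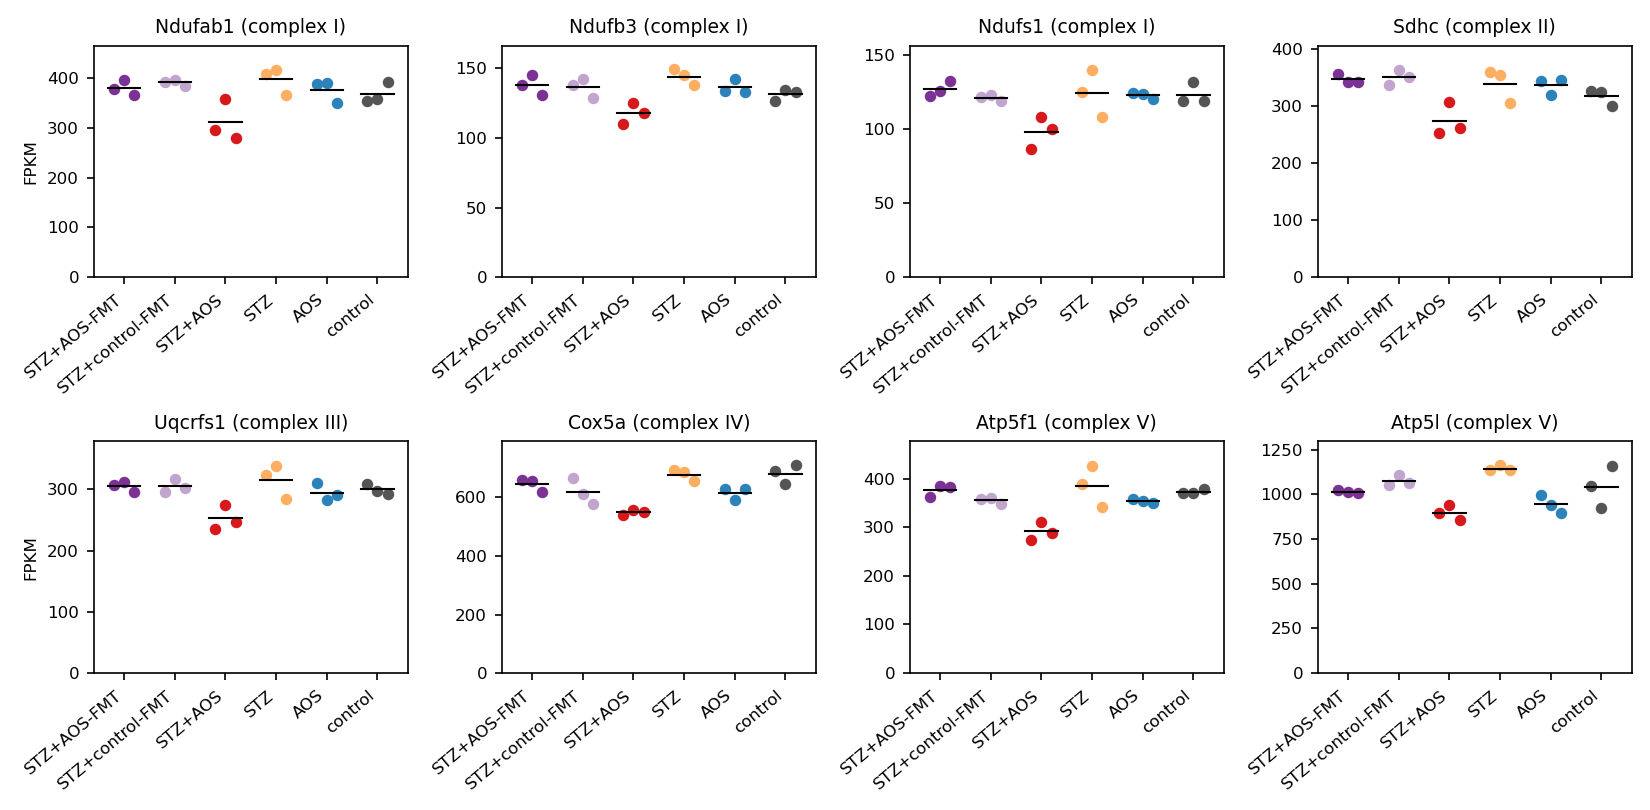
FPKM of 8 members in each library (points) with the group mean (bars), on axes that start at 0. The STZ+AOS libraries are lowest for Atp5f1, Cox5a, Uqcrfs1, Ndufb3 and Ndufs1, and overlap other groups for Ndufab1, Sdhc and Atp5l.

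All complexes shared the lower level in STZ+AOS. The median log2 difference from STZ was -0.20 in complex I, with 38 of 38 members lower, and -0.27 in complex II, with 4 of 4 lower. It was -0.24 in complex III, with 8 of 8 lower, -0.18 in complex IV, with 15 of 18 lower, and -0.25 in complex V, with 16 of 17 lower. The exceptions were Cox6b2, Cox4i2 and Ndufa4l2 in complex IV and Atp5e in complex V, and 0 of these 4 passed the test. Rescaling changed the size of the difference but not its direction: 75 of 85 members were lower with quantile normalization, 82 with median-of-ratios rescaling and 81 with the total taken without Kap, and the difference from the median of all genes was -0.40 as deposited, -0.10, -0.43 and -0.40 under these settings. With quantile normalization 0 of the 7 named genes were called (adjusted p from 0.0683 to 0.197), and the differences of Uqcrfs1, Ndufab1 and Atp5f1 were -0.18, -0.22 and -0.25. With median-of-ratios rescaling 65 members were called lower, given without the share of all genes called lower under that setting.

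The 7 calls were not stable to the choice of libraries. The number was 0 without STZ 1, STZ 2, STZ+AOS 1, STZ+AOS-FMT 1, STZ+AOS-FMT 3, any STZ+control-FMT library or any AOS library, and 1 without STZ+AOS 3 or STZ+AOS-FMT 2. It was 3 without control 2, 4 without control 1, 16 without STZ 3, and 22 without STZ+AOS 2 or control 3. The adjustment runs over all tested genes, so these counts also move with the calls of other genes, whose share is not given here. STZ+AOS 2, which had the least adrenal RNA of its group, had the highest of the 3 STZ+AOS values in each of the 7 genes. With Cyp11b1, the last enzyme of glucocorticoid synthesis in the adrenal cortex, as a covariate, 0 members were called and the median difference was -0.31. Cyp11b1 had 316, 14.3 and 276 FPKM in STZ+AOS and at most 5.13 FPKM in STZ. The covariate thus largely followed the group, and its part cannot be told apart from that of the group. Leaving out the libraries above 100 FPKM of Cyp11b1 kept only STZ+AOS 2 of its group, and the median difference was -0.12. That setting cannot tell adrenal RNA apart from the choice of library.

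Between STZ+AOS and AOS, the comparison that reads the effect of STZ on top of AOS, the members were divided. Of the 85, 47 were lower (55.3%), against 23% of all genes, and 38 were higher (44.7%), against 77% of all genes. The test called 6 members lower (7.06%), about the share of all genes (7.18%), and 1 higher (1.18%), against 39.3% of all genes. The median log2 difference was -0.02, against 0.29 for all tested genes. This split depended on scaling: median-of-ratios rescaling put 80 of 85 lower, with a median of -0.37, and a total taken without Kap put 62 lower, with a median of -0.09. In 15 members (17.6%) the STZ+AOS libraries all lay below the AOS libraries, against 9.75% of all genes, and in 11 (12.9%) all above, against 49.7% of all genes.

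Atp5f1, Ndufab1, Ndufb3 and Uqcrfs1 fell here too, a comparison that shares the STZ+AOS libraries with the one above. The AOS libraries had 358, 353 and 349.6 FPKM of Atp5f1, and it fell by 0.28 (SE 0.08, limma adjusted p = 0.0149). Ndufab1 averaged 311 ± 40.8 FPKM in STZ+AOS and 377 ± 22.7 FPKM in AOS, and fell by 0.28 (SE 0.09, limma adjusted p = 0.0261). Ndufb3 averaged 118 ± 7.38 FPKM in STZ+AOS and 137 ± 5.18 FPKM in AOS, and fell by 0.21 (SE 0.07, limma adjusted p = 0.0286). Uqcrfs1 averaged 253 ± 20.1 FPKM in STZ+AOS and 295 ± 14.0 FPKM in AOS, and fell by 0.22 (SE 0.08, limma adjusted p = 0.0372). With Cyp11b1 as a covariate the differences were -0.23 for Ndufab1, -0.23 for Atp5f1, -0.16 for Ndufb3 and -0.10 for Uqcrfs1 (limma adjusted p 0.963 to 0.966). Cyp11b1 was at most 0.15 FPKM in AOS, so the covariate largely followed the group and its part cannot be told apart from it. With the libraries above 100 FPKM of Cyp11b1 left out, only STZ+AOS 2 of its group remained. The differences were then -0.07 for Ndufab1, -0.10 for Uqcrfs1, -0.12 for Ndufb3 and -0.18 for Atp5f1. Quantile normalization also ended the calls of Uqcrfs1 (-0.15, adjusted p = 0.166) and Atp5f1 (-0.21, adjusted p = 0.0660).

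The other 2 genes that fell were Ndufs1 and Sdhc. Ndufs1, the large iron-sulfur subunit of the NADH-oxidising module of complex I, had 86.9, 108 and 99.97 FPKM in STZ+AOS, against 125, 124 and 121 FPKM in AOS. The groups did not overlap, and Ndufs1 fell by 0.33 (SE 0.10, limma adjusted p = 0.0158). Sdhc, a membrane anchor of succinate dehydrogenase that helps form its quinone site, had 253, 307 and 263 FPKM in STZ+AOS, against 345, 319.7 and 346 FPKM in AOS. STZ+AOS 2 lay closest to AOS, and Sdhc fell by 0.30 (SE 0.09, limma adjusted p = 0.0159). With the Cyp11b1 covariate the differences were -0.19 for Ndufs1 (adjusted p = 0.963) and -0.10 for Sdhc (adjusted p = 0.966). Without the libraries high in Cyp11b1, which left only STZ+AOS 2 of its group, they were -0.19 and -0.13. Sdhc was also not called after quantile normalization (adjusted p = 0.0789). Cox6b2, the testis isoform of subunit 6b, was the 1 member that rose, and its values are given with the isoforms.

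Against AOS the complexes differed in direction, most of them by little. In complex I 22 of 38 members were lower, with a median of -0.05, and in complex V 10 of 17, with -0.02. All 4 members of complex II were lower, with a median of -0.18, and in complex III 6 of 8 were lower, with -0.07. In complex IV 13 of 18 were higher in STZ+AOS, with a median of 0.13, but 15 of 18 were lower after median-of-ratios rescaling, with a median of -0.21. Within complex I all 7 core subunits were lower, the ones that carry the redox centres and the quinone site, with a median of -0.10, while 14 of the 29 accessory subunits were lower and 15 higher, with a median of 0.01. After median-of-ratios rescaling, 28 of the 29 accessory subunits were lower as well, and after quantile normalization 3 of the 7 core subunits were higher.

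**Figure D3:**
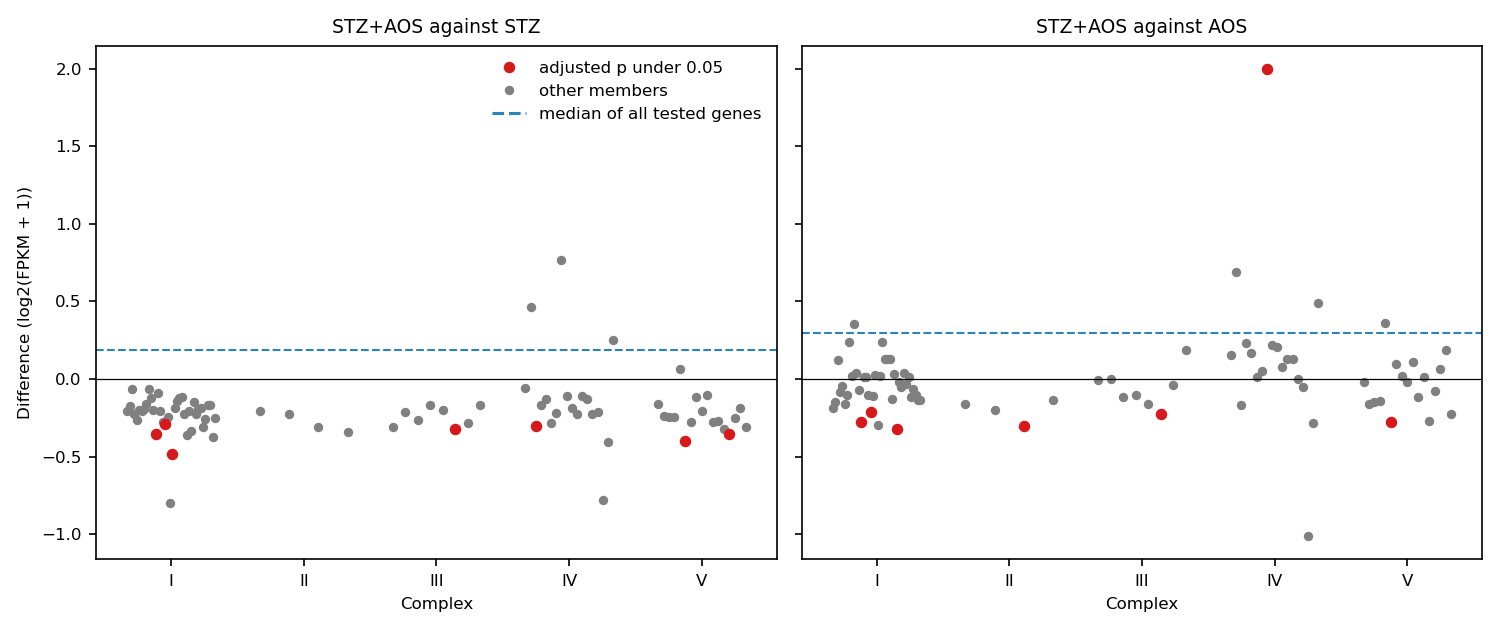
Each point is 1 member's difference in log2(FPKM + 1), red where the adjusted p was under 0.05, spread along the axis within its complex; the dashed line is the median of all 12682 tested genes. Against STZ nearly all members lie below 0 and below that line, and against AOS most lie below the line (0.29) and on both sides of 0, a split that turns to 80 of 85 below 0 after median-of-ratios rescaling.

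The balance of core and accessory subunits of complex I can be read without any scaling between libraries, as a difference within a library. Relative to its mean over 18 libraries, core minus accessory was -0.06 ± 0.03 in STZ+AOS on the log2 scale, against -0.02 ± 0.06 in STZ, 0.05 ± 0.02 in AOS and 0.02 ± 0.09 in control (SD, n = 3 each). In the transfer groups it was 0.01 ± 0.02 with STZ+AOS-FMT and 0.00 ± 0.01 with STZ+control-FMT. The 3 STZ+AOS values lay below the 3 AOS values, but STZ 3 and control 3 lay among the STZ+AOS values. These are small differences, and no test was made of them because the 2 classes were drawn up after the values were seen.

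**Figure D4:**
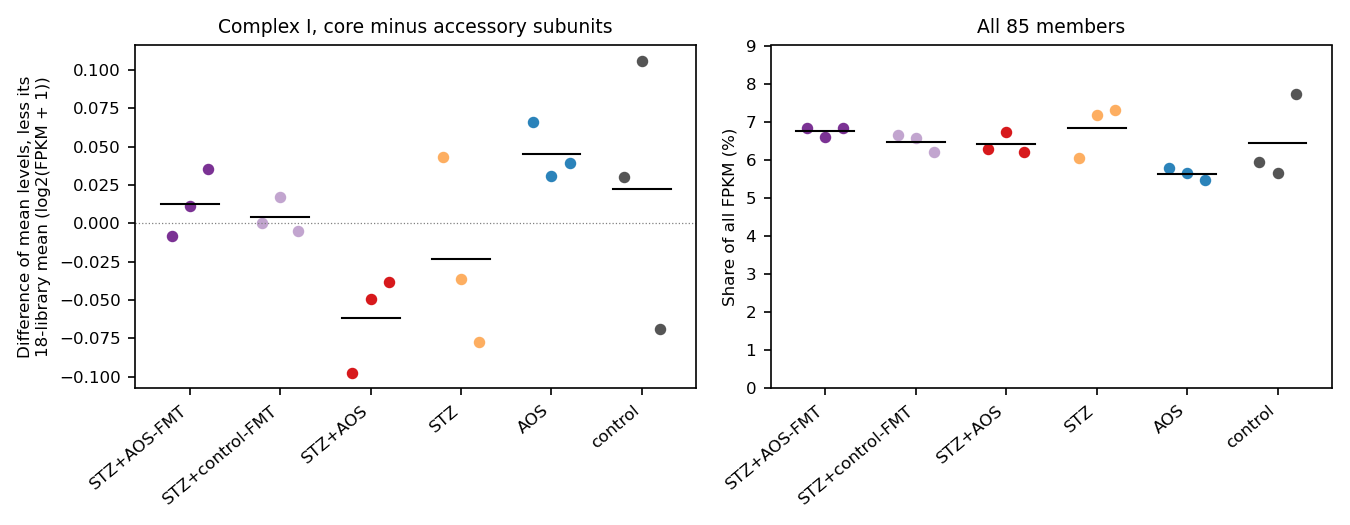
Left, mean log2(FPKM + 1) of the 7 core minus the 29 accessory subunits of complex I, less its 18-library mean, and right, the share of all FPKM taken by the 85 members; points are libraries and bars group means. STZ+AOS lies below AOS on the left, and control 3 is at 7.74% on the right.

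The remaining comparisons called 0 members with limma. STZ against control had 0 members called higher or lower, against 0% of all genes in each direction, and 0 members at an unadjusted p under 0.05, against 1.27% of all genes. The log2 difference was above 0 in 75 of 85 members (51.3% of all genes), with a median of 0.08. The members moved together from library to library, so that count does not stand for 85 separate results. For each library, the median deviation of the members from their means over all libraries was taken. It was 0.01, 0.13 and 0.12 in STZ 1, 2 and 3, and -0.04, -0.12 and 0.18 in control 1, 2 and 3. The groups overlapped in it, with control 3 above every STZ library. The 3 members with the smallest p were Uqcrh, the hinge protein between cytochrome c1 and cytochrome c (0.16, limma adjusted p = 1.00), Ndufb4 (0.19, adjusted p = 1.00) and Atp5mpl, a small proteolipid of complex V (0.21, adjusted p = 1.00). Ndufb4 had 894, 916 and 884 FPKM in STZ, against 752, 758 and 863 FPKM in control. The groups did not overlap for Ndufb4, Ndufb3, Ndufv3 and Uqcrh (4.71% of members, against 1.14% of all genes). Without control 3 and STZ 1 together, 14 members were called higher in STZ and the median was 0.20, against 0.16 for all genes. In Kap, control 3 (15798 FPKM) lay nearest the STZ libraries, and STZ 1 (144830 FPKM) nearest the controls. Leaving out both can by itself set the groups further apart. Without either library alone 0 members were called, and with library weights and both libraries kept 17 were. The shares of all genes called in these fits are not given here.

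AOS against control had 0 members called lower, against 0.071% of all genes, and 0 called higher, against 0% of all genes, with 2 members at an unadjusted p under 0.05, against 4.11% of all genes. The members were lower in 76 of 85 (89.4%), against 74% of all genes, with a median of -0.10, about that of all genes (-0.09). The groups overlapped in the library medians of the deviations: control 2 (-0.12) lay between AOS 2 (-0.08) and AOS 3 (-0.14). After median-of-ratios rescaling 51 of 85 members were higher, with a median of 0.02. Atp5e, the epsilon subunit of complex V, had 438, 289 and 285 FPKM in AOS, against 528, 395 and 588 FPKM in control. AOS 1 lay above control 2, and the log2 difference was -0.59 (SE 0.20, limma adjusted p = 0.817).

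STZ+AOS-FMT against STZ had 0 members called in either direction, against 0% of all genes called higher and 0.11% called lower, and 2 at an unadjusted p under 0.05, against 3.78% of all genes. The median was -0.04, with 61 of 85 lower (71.8%), against 46.8% of all genes. STZ+control-FMT against STZ also had 0 called, against 0% of all genes higher and 0.103% lower, and 5 at an unadjusted p under 0.05, against 2.22%. Its median was -0.05, with 59 of 85 lower (69.4%), against 43.7% of all genes, and both comparisons share the STZ libraries. In the library medians of the deviations, STZ 1 (0.01) lay below all 6 transfer libraries (0.03 to 0.08), so the groups overlapped. Cox6a2 was among the 3 members with the smallest p in both. It had 2.23, 1.49 and 1.26 FPKM in STZ+AOS-FMT, 1.59, 1.47 and 1.14 FPKM in STZ+control-FMT, and 0.92, 0.73 and 0.66 FPKM in STZ. All 6 transfer libraries lay above all 12 others, and the gene passed the filter of 1 FPKM through them alone, so it had to differ. Its log2 differences were 0.57 (limma adjusted p = 0.959) and 0.44 (adjusted p = 1.00).

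The donors did not separate these genes by the test. STZ+AOS-FMT against STZ+control-FMT had 0 members called in either direction, against 0% of all genes in each, and 2 at an unadjusted p under 0.05, against 1.65%. The median difference was 0.01, with 48 of 85 higher, against 47.9% of all genes. The smallest p belonged to Cox8b, given with the isoforms. A p that misses the threshold does not show that the groups were alike.

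The interaction, the effect of AOS with STZ minus its effect without, called 0 members in either direction, against 0% of all genes in each, and 13 at an unadjusted p under 0.05 (15.3%), against 33.4% of all genes. The median was -0.12, against 0.29 for all genes, and 68 of 85 were below 0, against 23.6% of all genes. Ndufb3 had the smallest adjusted p, with an interaction of -0.35 (SE 0.10, limma adjusted p = 0.0771), followed by Sdhc with -0.39 (SE 0.12, adjusted p = 0.0812) and Ndufab1 with -0.39 (SE 0.13, adjusted p = 0.0887). Without STZ 3 the test called 9 members, and without STZ+AOS 2 it called 3, so the count of 0 depended on those libraries. The F test of any difference over the 6 groups called 0 members, against 0.647% of all genes, and 24 were at an unadjusted p under 0.05, against 31.1%. Cox6a2 (limma adjusted p = 0.0622) came closest, but it passed the filter through the transfer libraries alone, so it had to differ. Atp5f1 (0.0668), Cox5a (0.0881) and Sdhc (0.0907) followed. Without control 3, 21 members were called, without STZ 3 it was 7, and without STZ 1 or STZ+AOS 2 it was 2. These counts and those of the interaction are given without the share of all genes called in the same fits.

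The tissue isoforms differed in how closely they followed the members of the other complexes over the 18 libraries. The correlation was 0.06 for Cox8b, 0.11 for Cox4i2, 0.31 for Cox6b2, 0.59 for Cox6a2 and 0.66 for Cox7a1, and with group means removed it was 0.72 for Cox6b2 and 0.87 for Cox7a1. Cox6b2 had 11.2, 35.5 and 17.0 FPKM in STZ+AOS, against 5.61, 5.12 and 2.10 FPKM in AOS. The groups did not overlap, and it rose by 2.00 on the log2 scale (SE 0.61, limma adjusted p = 0.0190). STZ had 5.82, 8.94 and 22.8 FPKM, so STZ+AOS and STZ overlapped, and control 3 had 28.6 FPKM beside 4.2 and 5.12 FPKM in the other controls. It made up 0.186% of the subunit 6b pair in AOS 3 and 2.53% in STZ+AOS 2, the rest being Cox6b1, the common isoform. The call was lost without STZ+AOS 2 (adjusted p = 0.0704) or AOS 3 (0.0739), and with Cyp11b1 as a covariate the difference was 0.72 (adjusted p = 0.967). The 4 spermatid markers, listed because this isoform is known from testis, summed to at most 0.18 FPKM in STZ+AOS and 18.2 to 74.3 FPKM in STZ, were listed at 0 in AOS, and summed to 26.1 to 37.1 FPKM in control. The correlation of Cox6b2 with Prm1, 1 of these markers, was -0.0046 over 18 libraries. The part of these markers in the level of Cox6b2 was not tested.

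Cox8b, the heart, muscle and brown fat isoform of subunit 8, had 4.07, 0.76 and 4.44 FPKM in STZ+AOS-FMT, against 24.3, 49.2 and 12.6 FPKM in STZ+control-FMT. The groups did not overlap, and the log2 difference was -2.82 (SE 0.70), with an unadjusted p of 0.00108 in limma and an adjusted p of 1. Its level had a correlation of 0.85 with Cidea and 0.75 with Ucp1, both brown fat genes, over 18 libraries. The 3 brown fat markers summed to 1.27 to 5.49 FPKM in STZ+AOS-FMT and 18.02 to 71.2 FPKM in STZ+control-FMT. Cox8b is 1 of the 3 and the largest in each of these libraries, so the sum largely repeats its difference. Cidea had 1.17, 0.36 and 0.92 FPKM in STZ+AOS-FMT, against 9.53, 16.1 and 5.10 FPKM in STZ+control-FMT. For Ucp1 the values were 0.25, 0.15 and 0 FPKM, against 1.14, 5.91 and 0.33 FPKM. The part of brown fat in the difference was not tested. Of the 6 muscle markers 0 passed the filter, and their sum was at most 2.48 FPKM in any library.

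Cox7a1, the heart and muscle isoform of subunit 7a, was the one tissue isoform at a substantial level. It averaged 56.6 ± 5.37 FPKM in STZ+AOS-FMT, 57.0 ± 10.4 in STZ+control-FMT, 59.7 ± 19.3 in STZ+AOS, 66.7 ± 11.8 in STZ, 49.97 ± 5.39 in AOS and 70.4 ± 25.3 in control (SD, n = 3 each). The groups overlapped, and control 3 was highest with 99.4 FPKM. Its share of the pair with Cox7a2 lay between 9.13% and 15.3%. Cox4i2, Cox6a2 and Ndufa4l2 each stayed under 1% of the pair with their common partner. Ndufa4l2, induced by hypoxia, had 8.61, 8.80 and 5.13 FPKM in STZ+AOS, against 7.01, 4.37 and 3.88 FPKM in AOS, with a log2 difference of 0.49 (SE 0.26, limma adjusted p = 0.130) and overlapping groups.

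**Figure D5:**
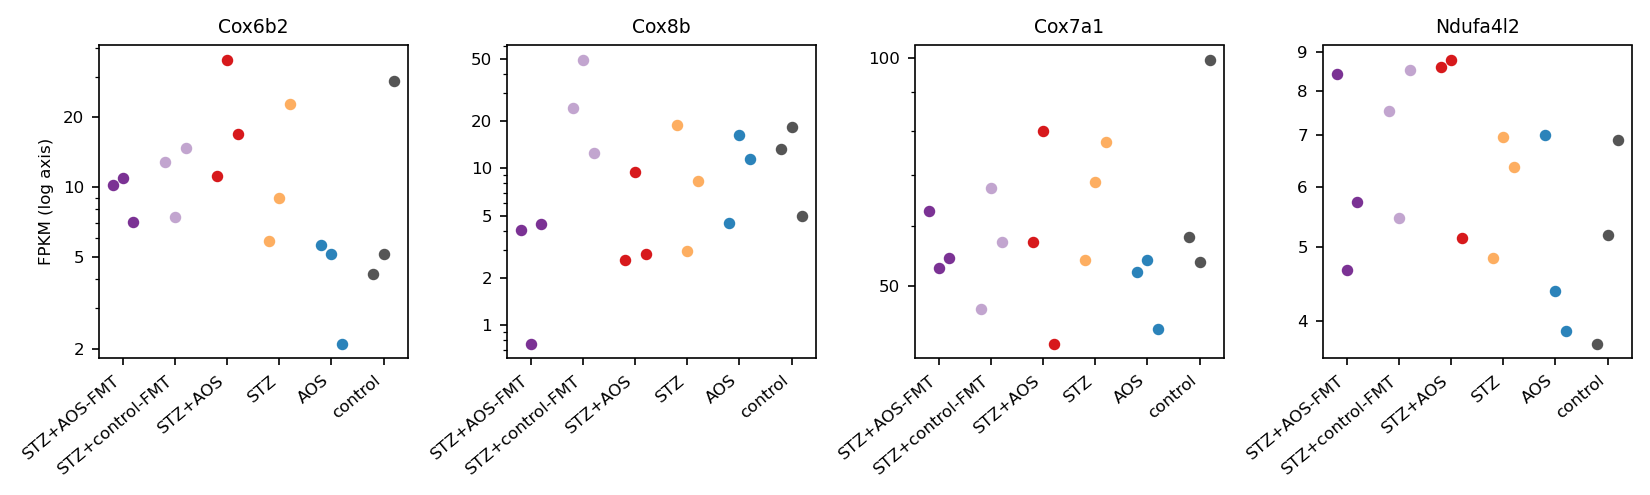
FPKM on log axes of 4 isoforms and paralogues in each library, by group. Cox6b2 is higher in the STZ+AOS libraries than in AOS, Cox8b is lower in STZ+AOS-FMT than in STZ+control-FMT, and the groups of Cox7a1 and Ndufa4l2 overlap.

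Subunit c of complex V, which forms the turning ring, is made from 3 genes with the same mature product. Atp5g1 held 35.8% to 41.8% of their summed FPKM over the 18 libraries, Atp5g2 17.2% to 20.6% and Atp5g3 39.2% to 44.5%. The order of Atp5g2 below the other two was the same in every library. In STZ+AOS against STZ the log2 difference was -0.28 for Atp5g1, -0.12 for Atp5g2 and -0.20 for Atp5g3, and 0 of the 3 passed the test.

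Genes that serve the complexes without being part of them were read from 4 lists in STZ+AOS against STZ. Of 48 assembly factors 39 were below 0, and 2 fell: Cox16, an assembly factor of complex IV, and Nubpl, which delivers iron-sulfur clusters to complex I. Nubpl had 10.2, 12.7 and 9.74 FPKM in STZ+AOS, against 19.8, 14.1 and 16.0 FPKM in STZ, and fell by 0.57 (SE 0.12, limma adjusted p = 0.0336). Of 18 genes of the citric acid cycle and pyruvate dehydrogenase 16 were below 0, and Suclg1 and Suclg2, subunits of succinyl-CoA synthetase, fell by 0.37 (SE 0.10, adjusted p = 0.0486) and 0.47 (SE 0.10, adjusted p = 0.0370). Of 24 electron carriers and shuttles 19 were below 0, and Atpif1, the inhibitor of complex V, and Coq9, needed for ubiquinone synthesis, fell by 0.43 (SE 0.10, adjusted p = 0.0370) and 0.35 (SE 0.09, adjusted p = 0.0478). Of the 18 regulators of mitochondrial biogenesis 12 were above 0 (66.7%), against 73.6% of all genes, with a median of 0.10 against 0.19 for all genes, and Pprc1, a relative of PGC-1 alpha, and Yy1 rose by 0.65 (SE 0.15, adjusted p = 0.0419) and 0.35 (SE 0.09, adjusted p = 0.0478). All 4 lists are read against 26.4% of all genes below 0, 1.1% called lower and 3.44% called higher.

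Ppargc1a, the coactivator best known for driving these genes, had 7.80, 9.33 and 11.5 FPKM in STZ+AOS, against 5.49, 8.61 and 11.2 FPKM in STZ, and the groups overlapped. Among the proximal tubule markers 7 of 8 were below 0 in STZ+AOS against STZ, and Slc22a6 and Slc13a3, transporters of organic anions and dicarboxylates, fell by 0.86 (SE 0.22, adjusted p = 0.0478) and 0.80 (SE 0.18, adjusted p = 0.0374). All 4 chromaffin cell markers rose, with sums of 136, 6.71 and 115 FPKM in STZ+AOS and at most 0.63 FPKM in STZ. They reached 1 FPKM only in STZ+AOS and control 3, so they passed the filter mainly through STZ+AOS and had to differ. All 4 endothelial markers were above 0, with a median of 0.72, and Ehd3 among them rose by 0.94 (SE 0.24, adjusted p = 0.0478). All 4 podocyte markers (median 0.67) and all 3 tested leukocyte markers (median 0.53) were above 0 as well, and 0 of them passed the test. All 4 spermatid markers fell, but they reached 1 FPKM only in STZ and control libraries. They passed the filter through those groups alone, so they had to differ. The part of these cell types in the lower subunit levels was not tested beyond the Cyp11b1 settings given above.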

How the data were processed

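The deposited table holds FPKM values of the authors for 18 libraries, a unit inferred from the values: the sum of value times exon length varied by 0.627% between libraries, the plain sum by 5.47%. Bowtie 0.12.2 and mm10 are listed per the submitters' processing notes; the counting tool is not given in the sources used here, nor is its use of strand. Read totals are unknown, so no counting interval is given.

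The 12682 genes that reached 1 FPKM in 3 or more libraries were fitted on log2(FPKM + 1), which understates the change of low genes, using limma 3.58.1 (R 4.3.3) with a mean for each group and the trend and robust options. The Benjamini-Hochberg method adjusted p-values over all of them, with a threshold of 0.05. Tests are two-sided. The fit was tested on simulated data. Exact permutation of 3 against 3 samples gives no p below 0.1, so none was run.

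The members and lists were chosen with earlier results of these data known, and the classes within complexes after the values were seen. Named members are those past the threshold, else the 3 with the smallest p, the leading member of each complex, the tissue isoforms, the most variable and those at the filter. Coordinates are from GENCODE vM21, where 87 of the 88 symbols matched. Alternatives were other scalings, filters, pseudocounts and weights, a replicate block, each library left out, and settings for Cyp11b1 and Kap.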

Additional observations from a re-analysis of the deposited data

How the results depend on the processing

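No result changed direction while called. The number of members called lower in STZ+AOS against STZ, 7 as reported, was 1 with quantile normalization (not one of the 7), 65 with median-of-ratios rescaling, 15 with the total without Kap, 3 and 11 with pseudocounts of 0.1 and 5, and 16 with library weights. It was 0 in a fit of only the groups compared, without control 3 and STZ 1 together and with Cyp11b1 as covariate. No count is given with libraries above 100 FPKM of Cyp11b1 left out, as only STZ+AOS 2 of its group remained. Leaving out 1 library gave 0 to 22. In STZ+AOS against AOS the 7 calls became 63, 15 and 0 with median-of-ratios rescaling, the total without Kap and the covariate. They became 4 in a fit of only those groups, 15 without control 3 and STZ 1, and 1 to 11 without 1 library. The member counts of this section are given without the share of all genes called under each setting. They are therefore not read as particular to the members.

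STZ against control, with 0 calls, had 17 with library weights and 14 without control 3 and STZ 1, a choice that can by itself set those groups apart. STZ+AOS-FMT against STZ had 1 with weights. The interaction, with 0, had 0 to 9 without 1 library. The F test, with 0, had 1 with quantile normalization, with the total without Kap and with no filter, 12 with median-of-ratios rescaling, 53 with weights, 32 without control 3 and STZ 1, and 0 to 21 without 1 library. The member called with the total without Kap and with no filter was Cox6a2.

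The members' median log2 difference in STZ against control was 0.20 with weights and 0.20 without control 3 and STZ 1, and 0.0342 to 0.166 without 1 library. With median-of-ratios rescaling it was 0.0194 in AOS against control, a change of sign, -0.44 in STZ+AOS against STZ, -0.37 in STZ+AOS against AOS, -0.0786 in STZ+control-FMT against STZ and -0.47 for the interaction. That rescaling moved the median of all genes in STZ+AOS against STZ to -0.01, against 0.19 as deposited, and its 805 calls were 26.5% higher, against 75.8% as deposited. With the covariate the members' median was -0.15 in STZ+AOS against AOS, -0.00803 in STZ+AOS-FMT against STZ and -0.0241 in STZ+control-FMT against STZ. Those last 2 comparisons had -0.0128 and -0.0118 with quantile normalization and -0.0819 and -0.0791 with weights. STZ+control-FMT against STZ had -0.0837 without control 3 and STZ 1 and -0.0837 to -0.0317 without 1 library, and the interaction -0.23 without control 3 and STZ 1 and -0.19 to -0.0597 without 1 library. The cause of these changes was not tested.

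With the replicate number as a block, 11 members were called in STZ+AOS against STZ and 1, Cox6a2, by the F test. The numbers did not pair the samples across all groups: same-numbered libraries of different groups had correlations of -0.26 to 0.67 (median -0.0038) over 45 pairs. STZ and control had the highest, 0.67 for number 3 and 0.54 for number 1, but -0.16 for number 2. Among the libraries, 9 of 18 correlated best with their own number. Depth is unknown, and with 3 libraries a group the spread is estimated from few values.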
